A study of Ischnura elegans with 24 samples.

Results

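The 150 contigs described here were those whose levels differed most between 2 pools of larvae from the same population at the same rearing temperature. They came from 12096 contigs that could be chosen, out of 34095 in the deposited count table, and so made up 1.24% of the contigs that could be chosen. A contig is a transcript sequence put together from the reads without a genome, here by the assembler Trinity. The larvae were those of the blue-tailed damselfly Ischnura elegans, an insect whose larvae live in fresh water. The series asks how northern and southern populations respond to mild warming.

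Per the labels, male larvae from 3 populations in the north and 3 in the south grew up singly at 20 or 24 °C until the final larval stage, fed with Artemia nauplii. Whole bodies of 72 larvae were used. Each library held the pooled RNA of 3 larvae, and each of the 12 combinations of population and temperature had 2 libraries, pool a and pool b. Northern larvae at 20 °C, northern larvae at 24 °C, southern larvae at 20 °C and southern larvae at 24 °C were thus 6 libraries each. Libraries are written here as N20 1b for pool b of northern population 1 at 20 °C and S24 2a for pool a of southern population 2 at 24 °C. The labels state no order for the letters a and b, so no meaning is read into the sign of a pool difference across combinations. In every northern combination, however, pool a had the higher total count. A pool of 3 larvae can be moved far by 1 larva, and the libraries do not show which. Variation among larvae and variation from handling and library preparation cannot be told apart in this design.

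Members were chosen on log2(CPM + 1), where CPM is counts per 1000000 on library sizes scaled by edgeR's TMM method. A contig had to be counted in all 24 libraries, which 29745 contigs were, and to have a mean of at least 5 CPM. The absolute difference between pools a and b was taken in each of the 12 combinations, and the 150 contigs with the largest median over the 12 were kept. The pool differences are therefore given as descriptions, with no test. The last member inside, DN3341_c1_g18_i1, had a median difference of 1.03 on the log2 scale. The first contig outside, DN173816_c0_g1_i2, had 1.02, so the limit falls at no gap in the values. Contig names are given without the prefix TRINITY_ that all of them share.

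In the names, the number after DN is the cluster of reads in which Trinity assembled the contig, c and g together mark a Trinity gene, and i marks an isoform. Contigs of 1 Trinity gene share stretches of sequence and are often splice forms or alleles of 1 locus. Contigs of 1 cluster but different Trinity genes can be related copies. RNA levels in whole insect larvae are known to differ among individuals with the stage within the moult cycle, feeding, infection and genotype. None of these is recorded per pool in the labels. No contig identifier matched the RefSeq gene table of the species (0 matches), so no gene name or role is given to any contig, and neither the labelled tissue nor the labelled sex could be checked against marker genes.

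Library totals ran from 12061616 to 17157615 counts, and the floor of 3 counts lay at 0.176 to 0.283 CPM. No 2 libraries held identical counts. Together the 150 contigs took 0.653% to 2.59% of a library's counts, with a median of 0.984% and the highest share in N24 3a. In 25 members at least 1 library was at 3 counts or fewer. Before the results, 7 libraries need naming because they stood apart in the largest group of contigs: N20 1b, N20 3a, N24 2a, N24 3b, S20 2a, S24 1b and S24 2b. Their totals (12061616 to 15232668) overlapped those of the other 17 libraries (12810307 to 17157615), as did their TMM factors (0.855 to 1.16 against 0.80 to 1.16). These are whole-body samples, in which fewer cells of a type and less RNA per cell cannot be told apart.

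The median member differed between paired pools by 1.29 on the log2 scale, against 0.190 for the median contig that could be chosen. Among the 150, 102 had a median difference between 1 and 1.5, 21 were at 2 or more and 7 at 3 or more, up to 5.33. No member differed in every combination by a full log2 unit. The number of combinations with a difference of at least 1 ran from 6 to 11 of 12, with a median of 7. In 108 members at least 1 combination had pools within 0.2 of each other, and 58 members had a combination with a difference above 4. Most members thus had at least 1 combination with pools alike on this scale, next to others with pools at least 1 log2 unit apart. Near the floor the added 1 CPM makes pools look alike. DN69368_c4_g1_i1, at 0.0644 and 0.202 CPM in northern population 1 at 24 °C, had a difference of only 0.175. The ratio of its highest to its lowest library had a median of 78.2 over the members and was never below 3.91.

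The standard error that counting alone gives to a pool difference had a median of 0.159 (0.0177 to 0.234 over members). Members were not confined to contigs of low mean level: their means ran from 5.05 to 1113 CPM with a median of 23.9 CPM, against 18.5 CPM over the contigs that could be chosen. A mean can rest on a part of the libraries, however. DN127179_c0_g1_i1 had a mean of 179.5 CPM but a median over libraries of 0.321 CPM, and DN68486_c4_g1_i1 30.95 and 0.807 CPM. In DN173695_c9_g1_i1 the mean of 1113 CPM was close to the median of 1046 CPM. These 3 were chosen for mention after their values were seen. The mean level was under 10 CPM in 41 members and above 100 CPM in 27.

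All 12 combinations contributed. The members' median difference ran from 0.977 in northern population 1 at 24 °C to 1.53 in northern population 2 at 24 °C. Over the contigs that could be chosen it ran from 0.154 in southern population 1 at 20 °C to 0.306 in northern population 1 at 20 °C. Pool a was the higher of the pair in 43.7% of the members' differences, against 49.5% over the contigs that could be chosen.

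**Figure D1:**
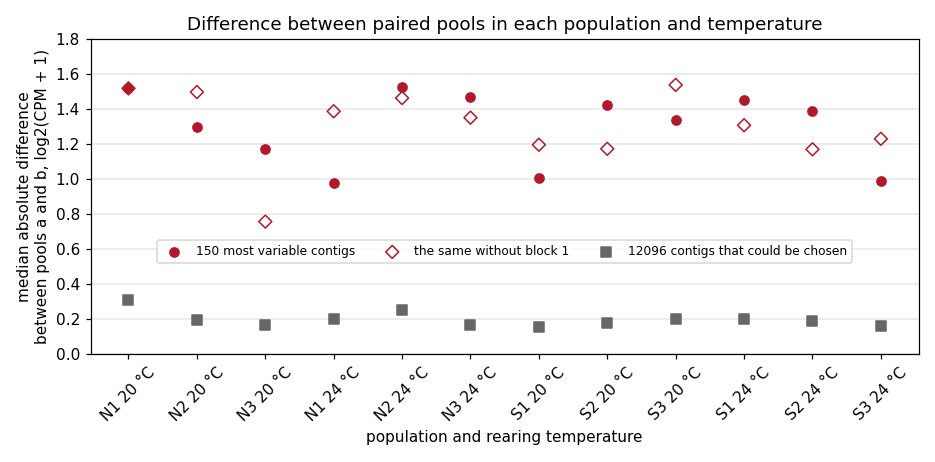
Median absolute difference between pools a and b, in log2(CPM + 1), in each of the 12 combinations of population and temperature (N, northern; S, southern). Circles show the 150 members, diamonds the members outside block 1 and squares the 12096 contigs that could be chosen. The circles lie between 0.977 and 1.53 and the squares between 0.154 and 0.306.

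To see which members varied together, the 12 signed pool differences of each contig were correlated with those of every other, without centring, so that the result does not depend on which pool is called a. Members were joined by average linkage and parted at a similarity of 0.6, and groups of at least 5 contigs are called blocks. In this way 71 members fell into 7 blocks of 25, 11, 10, 9, 6, 5 and 5 contigs, and 79 fell into none. Of the 11175 pairs of members, 342 (3.06%) had a similarity above 0.9, against 0.0376% of pairs of contigs that could be chosen. Of those 342 pairs, 267 lay inside block 1. The similarities use the same pool differences as the choice of members, so these shares are descriptions only. Above 0.6 the shares were much closer, 5.43% of member pairs against 3.51%, and below -0.6 they were 3.42% against 3.10%. Pairs of members from different Trinity clusters had a median similarity of -0.01. Among the 79 members in no block, pairs had a median similarity of 0.03, and 2.82% of them were above 0.6 and 0.162% above 0.9. Of the 79, 63 had at least 1 other of the 79 above 0.6, so small groups that varied together were present there too.

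**Figure D2:**
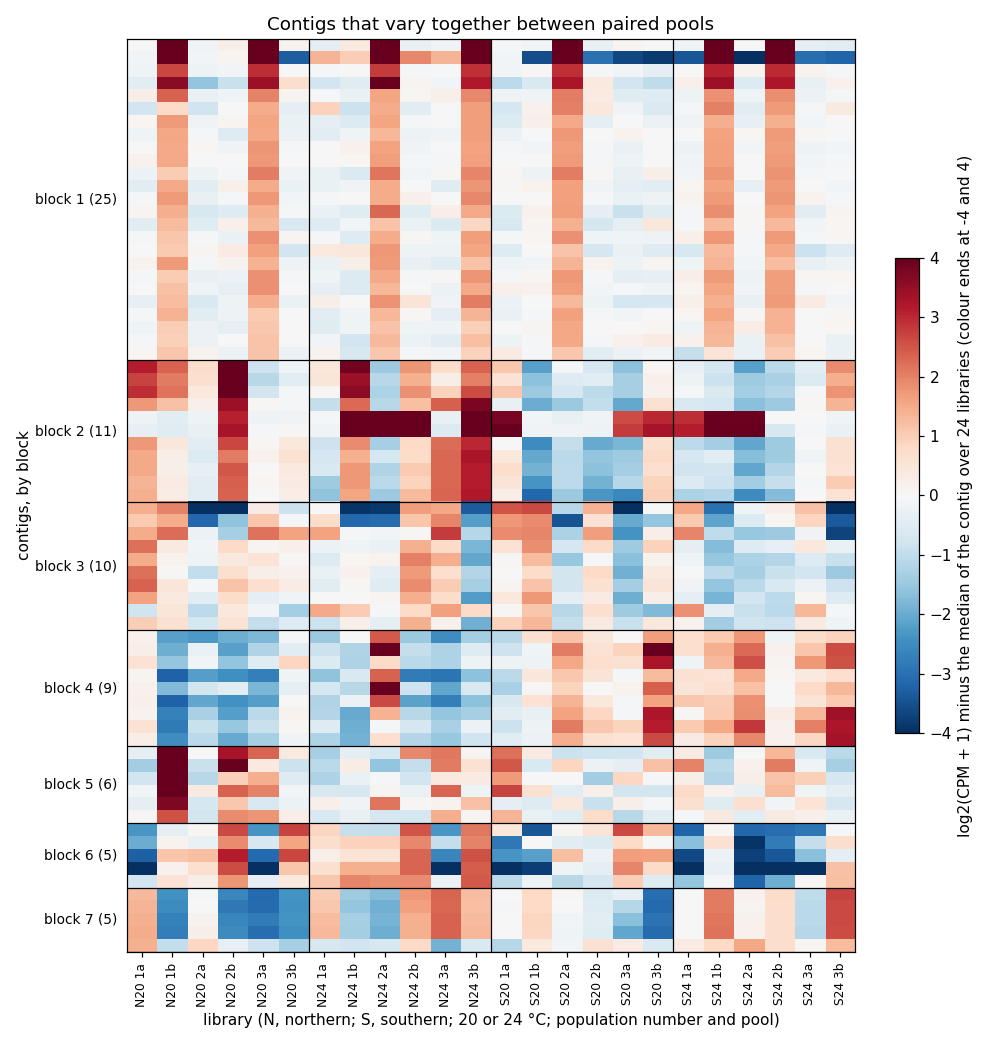
Level of the 71 members in blocks, as log2(CPM + 1) minus the contig's median over the 24 libraries, with 1 line per contig and 1 column per library, grouped by latitude and temperature. Red is above and blue below the contig's median, with colours ending at -4 and 4. In block 1 the same 7 columns are red, while blocks 2 to 7 each have their own arrangement of columns.

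Block 1 held 25 contigs of 22 Trinity genes in 22 clusters, with a mean similarity of 0.948 between its members. The 7 libraries named above are those over the largest gap in the block's mean level, so they were taken from these same contigs. In 24 of the 25 contigs they were the 7 highest of the 24 libraries, the exception being DN68779_c0_g4_i2. Among the 7 were 4 northern and 3 southern libraries, 3 at 20 °C and 4 at 24 °C, and 3 pools a and 4 pools b. They lay in 7 different combinations, so that in each of those the paired pool was low, and in the other 5 combinations both pools were low. The way members were chosen bears on this: a contig needed a difference of about 1 in at least 6 of the 12 combinations, so a pattern with both pools of a combination high would have been chosen less readily.

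DN10213_c0_g1_i1, the member with the largest median difference (5.33), shows the pattern most sharply. It was at 414 CPM in N20 1b, 421 CPM in N20 3a, 767 CPM in N24 2a, 542 CPM in N24 3b, 533 CPM in S20 2a, 503 CPM in S24 1b and 556 CPM in S24 2b. In the other 17 libraries it lay between 6.23 and 12.1 CPM. No library fell between these ranges, and the lowest of the 7 was 34.2 times the highest of the 17. Within each range the libraries were alike: the highest of the 7 was 1.85 times the lowest, and for the 17 this ratio was 1.94.

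DN7501_c0_g1_i3 lay between 68.1 and 91.3 CPM in the 7 libraries and between 7.58 and 10.98 CPM in the others. DN69055_c1_g1_i7 lay between 121 and 141 CPM against 36.1 to 46.5 CPM. These were the contigs most similar to the rest of the block, and in both the 2 ranges were narrow and did not meet. Over the 25 members the lowest of the 7 divided by the highest of the 17 ran from 0.893 to 34.2 with a median of 2.04, and exceeded 2 in 14. The ratio of highest to lowest within the 7 had a median of 1.55 and was under 2 in 22 members. Within the 17 that ratio had a median of 1.83 but reached 9.32 in DN283160_c0_g2_i1 and 303 in DN173079_c14_g1_i1, which lay between 0.255 and 77.4 CPM there; both were chosen for mention after their values were seen. Most of the block thus shared a step between the 7 libraries and the others, of differing height, and some of its contigs also varied widely among the 17.

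The pattern reached beyond the 150. Of the contigs that could be chosen, 72 had these 7 libraries as their highest, 48 of them outside the selection with pool differences up to 0.999 (median 0.706). Over the whole deposited table, a total of 240 contigs of 224 Trinity genes had these 7 highest, and 0 contigs had them lowest. By similarity to the block's mean, 97 contigs that could be chosen, members included, were at 0.8 or more. In the opposite direction, 3 were at -0.8 or lower. The 2 contigs outside the selection most like block 1 were DN9082_c2_g1_i1 and DN173699_c0_g1_i7, with similarities of 0.99 and 0.99 to its mean over the 12 combinations. DN9082_c2_g1_i1 lay between 37.2 and 55.6 CPM in the 7 libraries and reached at most 27.4 CPM in the others. The step was thus present, at smaller height, in contigs that missed the selection. What sets the 7 libraries apart was not tested.

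**Figure D3:**
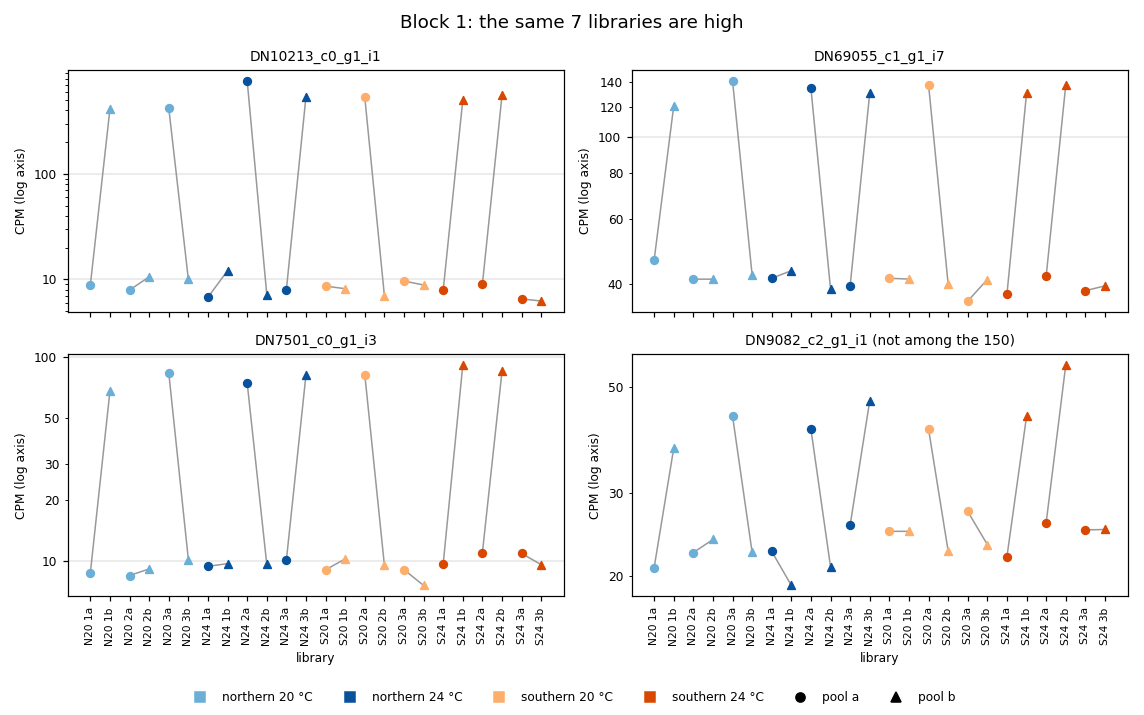
CPM on a log axis in each of the 24 libraries for 3 contigs of block 1 and for DN9082_c2_g1_i1, which was not among the 150. Colours give latitude and temperature, circles pool a and triangles pool b, and lines join the pools of a combination. In all 4 panels the same 7 libraries are high, such as 414 to 767 CPM against 6.23 to 12.1 CPM for DN10213_c0_g1_i1.

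Block 2 (11 contigs of 7 Trinity genes, mean similarity 0.866) was highest on average in N20 2b and lowest in S20 1b. DN10288_c0_g6_i2 reached 122.6 CPM in N20 2b and 41.9 CPM in N24 1b, against 3.75 CPM and 2.64 CPM in their paired pools. Its lowest, median and highest levels were 1.12, 9.25 and 122.6 CPM in northern larvae at 20 °C and 0.468, 8.62 and 41.9 CPM at 24 °C. In southern larvae they were 0.259, 0.968 and 6.49 CPM at 20 °C and 0.383, 1.86 and 11.1 CPM at 24 °C. The groups overlapped, with the highest libraries northern. DN6859_c1_g1_i1 was instead highest in N24 3b, at 59.4 CPM, followed by N20 2b at 34.4 CPM, and lowest, like DN10288_c0_g6_i2, in S20 1b, at 0.324 CPM. Outside the selection, DN6859_c1_g9_i1, another gene of that Trinity cluster, was the contig most like the block (similarity 0.94), followed by DN183842_c2_g2_i2 (0.93). The block also held a pair of isoforms, DN68415_c46_g1_i1 and DN68415_c46_g1_i2, that lay at 2 levels over the same 11 libraries; they were chosen for mention after their values were seen.

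Block 3 (10 contigs, mean similarity 0.737) came from only 3 Trinity clusters. Cluster DN121541 gave 6 of its contigs, and these were similar at 0.88 to 0.98. DN121541_c3_g16_i1 was at 92.9 CPM in N20 1a and 24.8 CPM in N20 1b, and at 72.6 CPM in S20 1b and 29.5 CPM in S20 1a. DN121541_c3_g20_i1, at a lower level, was at 32.1 CPM and 8.01 CPM in the same northern pools and at 13.1 CPM and 5.94 CPM in the southern. Both contigs were lowest in S24 1b or close to it, with 5.10 CPM and 1.18 CPM. Reads that fit several copies could be shared among them in the authors' counting, which is not described in the sources used here. These 6 contigs may therefore not be 6 independent measurements. The 3 contigs of cluster DN2391 in the block were instead higher in N20 1b than in N20 1a. In log2(CPM + 1), DN2391_c6_g4_i3 was at 8.95 against 8.42 there, and at 9.59 in S20 1b against 9.46 in S20 1a.

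Block 4 (9 contigs of 9 Trinity genes, mean similarity 0.825) had its highest library in S20 3b and its lowest in N20 1b. The mean of its contigs, in log2(CPM + 1), had a median of 2.98 over northern and 4.97 over southern libraries. DN124445_c0_g2_i1 lay between 0.206 and 5.48 CPM in northern larvae at 20 °C (median 2.12) and between 1.27 and 90.5 CPM at 24 °C (median 1.89). In southern larvae it lay between 2.07 and 94.7 CPM at 20 °C (median 8.03) and between 5.05 and 32.2 CPM at 24 °C (median 12.02). The northern value of 90.5 CPM was that of N24 2a alone, whose paired pool was at 1.79 CPM. DN228245_c0_g4_i1 showed the same exception, with 101 CPM in N24 2a against 2.73 CPM in N24 2b. This pair of pools held 31.5% of the block's squared differences. A further 209 contigs outside the selection had a similarity of at least 0.8 to the block's mean, and 83 contigs that could be chosen had -0.8 or lower.

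Block 5 (6 contigs of 6 clusters, mean similarity 0.780) turned mostly on N20 1b, whose combination held 56.4% of its squared differences. DN122639_c0_g1_i1 was at 1094 CPM in N20 1b and 0.863 CPM in N20 1a, and at 84.8 CPM in N20 2b and 1.60 CPM in N20 2a. In all other libraries it lay at 26.4 CPM or less. DN8045_c3_g5_i6 was at 320 CPM in N20 1b and 0.739 CPM in N20 1a, and otherwise reached no more than 11.3 CPM. Of contigs outside the selection, 201 had a similarity of at least 0.8 to the mean of block 5, and 236 contigs that could be chosen had -0.8 or lower. That combination also had the largest median difference over the contigs that could be chosen.

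Blocks 6 and 7 held 5 contigs each. Block 6 (mean similarity 0.786) had a median of 5.45 over northern and 3.63 over southern libraries in log2(CPM + 1), and was highest in N20 2b and lowest in S24 2a. Its contigs mostly had the higher level in pool b: pool a was higher in only 1 to 3 of the 12 combinations. Leaving out 1 combination kept between 0 and 5 of its contigs together. The pool differences of block 6 correlated at -0.65 with the log2 ratio of the pools' total counts. In the other blocks this correlation ran from -0.48 (block 2) to 0.54 (block 3), and it was -0.32 in block 1. A link to sequencing depth was not tested. Block 7 (mean similarity 0.874) had mean levels from 6.14 to 863 CPM. It was highest in S24 3b and lowest in N20 3a.

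Some members lay at 2 separate levels. A gap of at least 2 log2 units between neighbouring libraries, with at least 3 libraries on each side, was present in 16 members (10.7%) and in 26 contigs that could be chosen (0.215%). Only 4 of the 16 were in block 1. Choosing contigs for large pool differences favours such gaps, so the higher share among members follows in part from the rule. DN69368_c4_g1_i1 was at 194 to 886 CPM in 12 libraries and at 0.0644 to 1.87 CPM in the other 12. At 24 °C both pools of northern population 1 were low (0.0644 and 0.202 CPM) and both of northern population 2 high (414 and 510 CPM). In northern population 1 at 20 °C, pool a was at 886 CPM and pool b at 0.0673 CPM, under the floor of 3 counts. In 6 combinations the pools fell on different sides of the gap. The contig thus went from near the detection limit to some of the highest levels of the set, with high libraries in both latitudes and at both temperatures.

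DN127179_c0_g1_i1 was at 89.0 to 1130 CPM in 11 libraries and at 0.0690 to 0.389 CPM in 13, and DN225624_c4_g1_i1 reached 13120 CPM, with 4 libraries at 669.93 CPM or more and 20 at 146.5 CPM or less; both were chosen for mention after their values were seen. Of the 16 members at 2 levels, only the 3 of block 1 that shared the 7 libraries and the 2 isoforms of DN68415 had the same high libraries as another. At this depth, absence from a library and a level under its floor of 3 counts cannot be told apart.

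**Figure D4:**
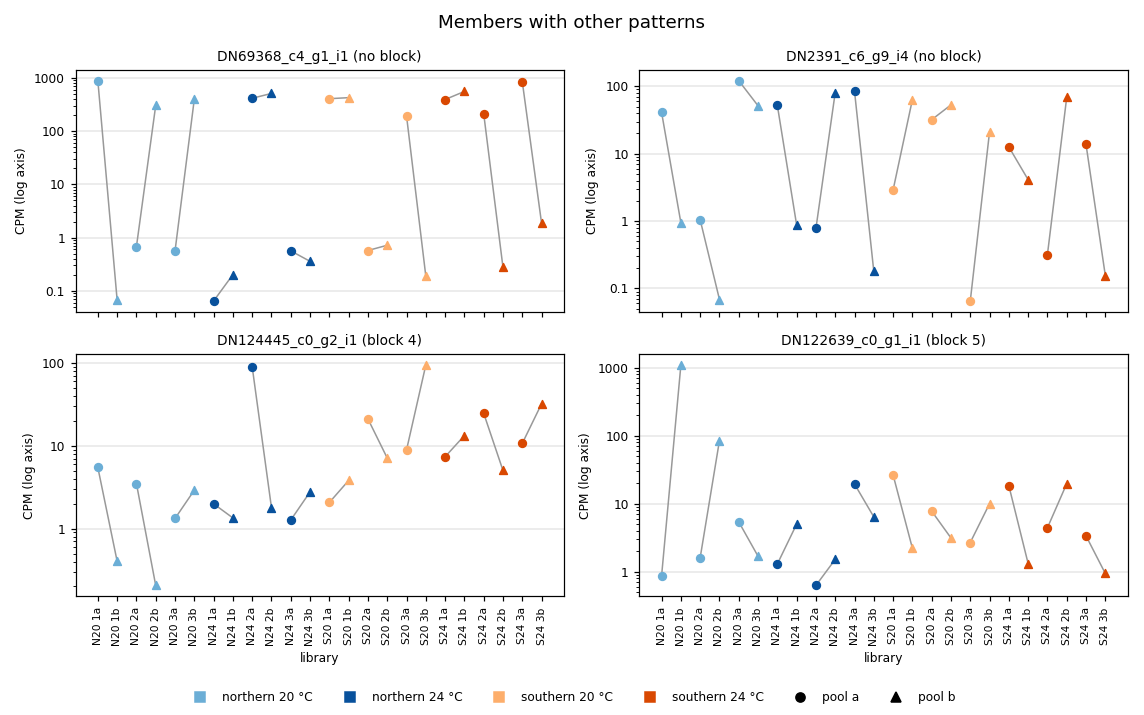
CPM on a log axis in each of the 24 libraries for DN69368_c4_g1_i1, DN2391_c6_g9_i4, DN124445_c0_g2_i1 and DN122639_c0_g1_i1, with colours, symbols and lines as for block 1. Each contig has its own set of high libraries. DN69368_c4_g1_i1 lies at 2 levels with 12 libraries each, and DN122639_c0_g1_i1 peaks at 1094 CPM in N20 1b.

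The members came from 133 Trinity genes and 118 clusters, and 33 of them sat in 7 clusters with at least 3 members each. Cluster DN2391 alone gave 11 members of its 18 contigs in the table. Unlike those of DN121541, they did not move together, with similarities from -0.70 to 0.93 and a median of 0.05, and they were spread over block 3, block 6 and no block. DN2391_c6_g9_i4, second in rank with a median difference of 4.21, was at 41.0 CPM in N20 1a and 0.943 CPM in N20 1b but at 0.780 CPM in N24 2a and 80.8 CPM in N24 2b. Its lowest, median and highest levels were 0.0686, 21.0 and 121 CPM in northern larvae at 20 °C and 0.179, 26.5 and 84.3 CPM at 24 °C. In southern larvae they were 0.0652, 26.5 and 63.3 CPM at 20 °C and 0.156, 8.36 and 68.7 CPM at 24 °C. All 4 groups spanned nearly the whole range.

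Summing all contigs of a Trinity gene separates a shift between isoforms from a change of the gene's total. The genes of 51 members (34.0%) held other contigs in the table, against 23.9% over the contigs that could be chosen. Over these 51 members, the median pool difference was 1.25 for the contig and 1.20 for its gene. They belonged to 34 Trinity genes, of which 26 differed by 1 or more when summed. In 4 members the gene's difference was under 50% of the contig's. DN2391_c6_g9_i4 was among them, falling from 4.21 to 1.55 when its 4 contigs were summed. In 23 members the contig held under 50% of its gene's counts, and of the 15 genes concerned 12 still differed by 1 or more. Most of these genes, such as DN5858_c2_g1 and DN232196_c1_g1, held only members, so the sum added up contigs already chosen. In DN6454_c4_g1, DN68428_c10_g1 and DN173858_c2_g2, where 1 member held 11.9%, 23.8% and 30.8% of the counts, the sum differed by 0.366, 0.640 and 0.628. In DN121885_c3_g10, with members at 9.26% and 39.2%, it differed by 1.12. Across pairs of members from the same Trinity gene, of which there were 23, the median similarity was 0.59 and the lowest -0.40. Most summed genes thus also differed, but where members made up the gene this follows in part from how they were chosen.

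Mean levels of the 12 combinations were not used to choose members or to form blocks. Their correlation between contigs of the same block averaged 0.767 over 471 pairs, and 0.642 outside block 1. It was 0.0317 over the other pairs of members and 0.00595 over pairs of contigs that could be chosen. These are descriptions over 12 points that share libraries, and a library high in 2 contigs raises both their pool differences and their means. The means themselves were widely spread: their SD over the 12 combinations was 1.11 for the median member and 0.183 for the median contig that could be chosen, next to an SD between pools of 1.26 and 0.205. A mean of 2 pools carries part of the spread between pools. The SD of the means is therefore not that of populations and temperatures alone.

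The study's own comparisons were then read for the members in fits over 31287 contigs with edgeR's quasi-likelihood test, and all 150 were among the contigs tested. The temperature and population tests share 1 fit of all 24 libraries. Their error combines the spread between pools, for which the members were chosen, with differences in temperature response among populations of a latitude. Pools thus count as replicates in these tests, also for the difference between the temperature responses of the latitudes. For temperature in northern larvae 0 members passed an adjusted p of 0.05, against 0.559% of all tested contigs. At an unadjusted p of 0.05 there were 10 members (6.67%) against 13.6%. The lowest adjusted p was 0.103, for DN68972_c4_g1_i1, at 2.16 to 67.3 CPM at 20 °C and 1.41 to 2.36 CPM at 24 °C. For temperature in southern larvae 0 members passed, against 0.105%, with 3 at an unadjusted p of 0.05 (2% against 7.03%). For the difference between the temperature responses 0 passed, against 0.0256%, with 7 unadjusted (4.67% against 5.17%). DESeq2 called 9, 1 and 1 members, against 2.58%, 0.182% and 0.0479% of all contigs.

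The fitted temperature changes of members were large and uncertain. The median absolute log2 fold change was 0.42 in northern and 0.48 in southern larvae, against 0.21 and 0.16 over all contigs, while the median standard error was 0.83 and 0.82 against 0.26 and 0.26. In northern larvae 88 members were estimated higher and 62 lower at 24 °C, and in southern larvae 74 and 76. Since members were chosen for the spread between pools that enters this error, the low counts say nothing particular about their response to temperature.

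Differences among the northern populations passed in 1 member, DN173215_c3_g1_i9, against 0.694% of all contigs (edgeR F test, adjusted p = 0.0496). It was at 27.5, 26.3, 33.6 and 1.14 CPM in the 4 libraries of northern population 1, and at 0.390 to 3.44 CPM in those of the other northern populations. A library of population 1, N24 1b, lay inside the range of the other populations. The call was lost in 26 of 34 alternatives, with adjusted p up to 0.919, among them the fit without the 7 libraries (0.584). At an unadjusted p of 0.05 there were 13 members (8.67%) against 12.8%, and DESeq2 called 3 members against 1.72%. Among the southern populations edgeR called 0 members, against 0.109%, with 13 unadjusted (8.67% against 7.13%) and 1 by DESeq2 against 0.339%.

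Latitude was tested with both pools of a population summed, 3 populations against 3, so that the error was the spread between population sums, into which the spread between pools also enters. At 20 °C edgeR called 0 members and 0% of all contigs, with 38 members at an unadjusted p of 0.05 (25.3% against 14.4%) and 20 called by DESeq2 (2.93% of all contigs). At 24 °C edgeR called 6 members (4%), against 0.495% of all contigs, and DESeq2 21, against 4.63%. Of the 6, 1 was higher in southern larvae (0.192% of all contigs) and 5 were lower (0.304%). At an unadjusted p of 0.05 there were 25 members (16.7%) against 14.3%. The count of 6 fell to 0 without the 7 libraries, with edgeR adjusted p from 0.0947 to 0.366 for the 6. The count over all contigs fell from 155 to 0 as well. That fit had less data, with only 1 pool at 24 °C for northern populations 2 and 3 and southern populations 1 and 2. Leaving out a library moved the members' count to 2 without N24 1a, 13 without N24 2a, 2 without N24 3b and 1 without S24 2b, while the count over all contigs moved to 53, 310, 44 and 27. None of the 6 lay in a block, but a pair of the 5 lower ones had a similarity of 0.99 and so varied together. The other pairs among the 6 were at 0.33 or less.

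DN68972_c4_g1_i1 was at 1.41 to 2.36 CPM in the 6 northern libraries at 24 °C (median 1.57) and at 35.0 to 244 CPM in the 6 southern (median 115). The groups did not overlap, and the southern larvae were higher by 6.28 ± 0.37 on the log2 scale (estimate ± SE, edgeR quasi-likelihood test, adjusted p = 0.00757). At 20 °C the northern libraries lay between 2.16 and 67.3 CPM and the southern between 9.85 and 283 CPM, so the groups overlapped, and the difference was 2.85 ± 0.81 (edgeR, adjusted p = 0.258). Pools of a combination were far apart at 20 °C, as in northern population 2 with 2.33 CPM and 67.3 CPM, while all 6 northern libraries at 24 °C were within 1 CPM of each other. Whether the latitude difference itself changed with temperature did not pass its test in the fit of all 24 libraries (edgeR, adjusted p = 0.894). Without the 7 libraries the log2 difference at 24 °C was 5.75, with an adjusted p of 0.111.

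DN2057_c5_g1_i4 was at 9.74 to 29.6 CPM in northern libraries at 24 °C (median 25.9) and at 1.76 to 5.42 CPM in southern ones (median 3.30). The groups did not overlap, and the log2 difference, southern minus northern, was -2.73 ± 0.16 (edgeR, adjusted p = 0.00306). At 20 °C it was -2.48 ± 0.71 (edgeR, adjusted p = 0.255), with libraries that overlapped at 3.64 to 46.1 CPM and 0.586 to 7.85 CPM. Without the 7 libraries the difference at 24 °C was -2.79, with an adjusted p of 0.125.

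DN5478_c18_g1_i2 was at 1.08 to 51.3 CPM in northern libraries at 24 °C (median 28.8) and at 0.207 to 8.30 CPM in southern ones (median 4.36), and here the libraries overlapped. The summed pools gave -2.78 ± 0.16 (edgeR, adjusted p = 0.00303), although paired pools of this contig differed by a median of 2.56 over the 12 combinations. N24 1a was at 48.6 CPM and N24 1b at 1.08 CPM, and N24 2a at 51.3 CPM and N24 2b at 6.22 CPM. The standard error was that of 3 population sums in each latitude. Without the 7 libraries the difference was -1.35, with an adjusted p of 0.366.

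**Figure D5:**
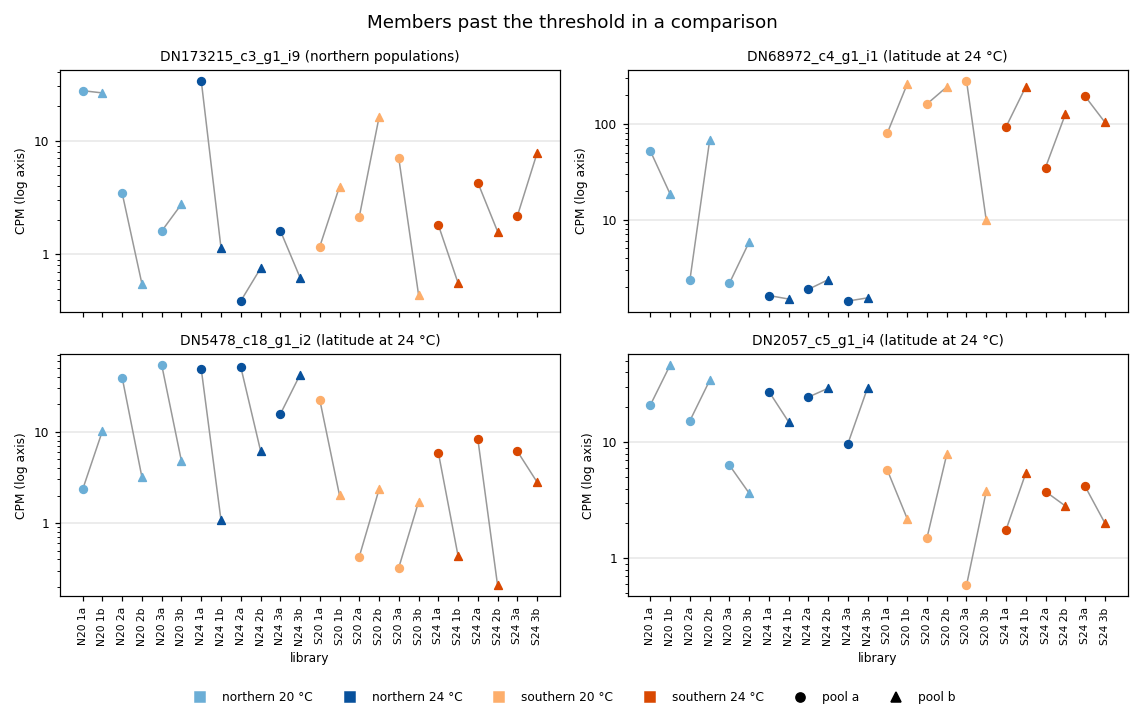
CPM on a log axis in each of the 24 libraries for the member that passed among northern populations and the 3 named members that passed between latitudes at 24 °C, with colours, symbols and lines as for block 1. DN68972_c4_g1_i1 and DN2057_c5_g1_i4 do not overlap between latitudes at 24 °C, while DN5478_c18_g1_i2 does, with N24 1b at 1.08 CPM.

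Over the whole set, estimates leaned to lower levels in southern larvae. At 20 °C 102 members were estimated lower and 48 higher, with a median log2 difference of -0.42 against -0.01 over all contigs. At 24 °C 100 were lower and 50 higher, with a median of -0.46 against -0.02. An absolute difference of at least 1 was estimated for 40.7% of members at 20 °C and 40.0% at 24 °C, against 7.40% and 7.68% of all contigs. The median absolute difference was 0.76 and 0.66 for members, against 0.24 and 0.23, next to a median standard error of 0.72 and 0.65, against 0.25 and 0.26. The spread between pools, for which members were chosen, enters these estimates. Large absolute differences among members thus follow in part from the choice. The members share libraries and in part Trinity genes, so these counts are not independent observations.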

How the data were processed

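The authors deposited a table of raw read counts for 34095 contigs in 24 libraries. The submitters' processing notes list Subread 1.5.1, featureCounts, Trimmomatic 0.36 and FastQC 0.11.5 without saying what each did. How contigs were assembled, reads aligned and strand used is not stated there, and without strand or unique assignment reads of overlapping or near-identical contigs can be shared. Sequencing was paired-end after TruSeq preparation, per the labels.

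Counts were scaled by TMM over the whole table, and log2(CPM + 1) was used with a pseudocount of 1 for choosing members and forming blocks. Tests used edgeR 4.0.16 in R 4.3.3 (robust quasi-likelihood, Benjamini-Hochberg adjustment over 31287 contigs left by filterByExpr over the 4 groups, minimum count 10 and minimum total 15). The fit of all 24 libraries had an intercept for each of 6 populations and a temperature effect per latitude. Standard errors are those implied by the F statistics. DESeq2 1.42.0 was an alternative. The scripts were tested on simulated data.

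Pairing of libraries is by population, as the labels give it. Deviations from group means correlated at -0.02 to 0.30 between the 2 temperatures of a population. Each pool held other larvae, but from a shared source population, and p-values measure only the spread among these pools and populations.

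The members and lists were chosen with earlier results of these data known. Contigs are named by a rule: the 3 largest median differences, the 2 most central contigs of each of the 5 largest blocks, up to 2 members past the threshold per direction and comparison, the contigs on both sides of the limit, and the 2 outside contigs most like each of the 2 largest blocks. Others are marked where named. The alternatives changed the normalisation, pseudocount, filters, summary over combinations, linkage, block, tool, and the libraries and populations included. No sequence is printed.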

Additional observations from a re-analysis of the deposited data

Results flagged for a closer look

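Within groups of 6 libraries, the highest or lowest library of a named contig or block mean stood far from the other 5 in 14 of 100 groups looked at. The measure is the gap to the nearest library divided by the group's range in log2(CPM + 1), and chance flags about 1 in 20 groups. Most contigs looked at were chosen for differences between pools, and contigs of a block share libraries, so the flags are not independent.

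S20 2a accounted for 4 flags, all of block 1. The share of the range was 0.905 for the block's mean, 0.932 for DN10213_c0_g1_i1 (533 CPM), 0.896 for DN69055_c1_g1_i7 (138 CPM) and 0.882 for DN7501_c0_g1_i3 (82.0 CPM). S20 2a is the only southern library at 20 °C among the 7 that were high in this block. The other 3 groups held 2 of the 7 each.

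N24 2a stood apart in block 4, at 0.755 for its mean and 0.862 for DN124445_c0_g2_i1 (90.5 CPM). In block 5 the share was 0.839 for the mean in S20 1a, 0.671 for DN8045_c3_g5_i6 in N20 1b (320 CPM) and 0.746 for the same contig in N24 3a (8.33 CPM). N24 3a was also high at 0.630 for DN3341_c1_g18_i1 (11.4 CPM), a contig of block 5, and low at 0.640 for the mean of block 6.

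For DN121541_c3_g16_i1 of block 3 the share was 0.628 in N20 1a (92.9 CPM). DN173215_c3_g1_i9, in no block, had 0.802 in N24 1a (33.6 CPM), the library with its highest level. DN5478_c18_g1_i2, in no block, had 0.678 in S20 1a (22.3 CPM), against 0.326 CPM as the lowest of that group.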

How the results depend on the processing

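Of the 150 members, 148 were also chosen with DESeq2 size factors, 142 with a pseudocount of 0.5 and 128 to 137 without 1 combination. A minimum mean of 20 CPM kept 85. The 5 combinations with none of the 7 libraries, an alternative chosen after the data were seen, kept 93. They kept 0 of block 1 and 93 of the other 125. The 7 libraries were taken from block 1 itself, so its 0 follows largely from that choice. The combinations at 20 °C alone kept 101 and those at 24 °C alone 105, and these 2 lists shared 57. Blocks numbered 6 to 8 under every setting tried, block 1 kept all 25 contigs without any combination, block 3 kept 6 to 10 and block 6 0 to 5.

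Without the replicate block of populations edgeR called 1 member for temperature in northern larvae, against 0, and over all contigs 190 against 175. For southern temperature and the difference of responses the members' count was 0 with and without it, while the count over all contigs went from 33 and 8 to 0 and 0. DESeq2 called 9, 1 and 1 members for northern temperature, southern temperature and their difference, 3 and 1 among northern and southern populations, and 20 and 21 between latitudes at 20 and 24 °C. The call among northern populations became 0 without a filter on low counts, 0 without northern population 1, 2 or 3 or southern population 1 or 2, and 0 without the 7 libraries; leaving out 1 library gave 0 to 2. Latitude at 20 °C gave 1 without northern population 3. Latitude at 24 °C gave 0 without the 7 libraries (0 over all contigs too), and 1 to 13 without 1 library. The cause was not tested. A change of direction could be looked for only in the 6 members called between latitudes at 24 °C, and none of these changed direction in any alternative. Pools of 3 larvae and 3 populations per latitude limit what could be detected in contigs with such spread.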
